A study of Mus musculus with 163 samples.

Results

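The genes described here are 10 members of the PIWI-interacting RNA (piRNA) pathway and of small RNA silencing in mouse oocytes: Ddx4, Mael, Piwil2, Mov10l1, Tdrd1, Tdrd9, Tdrkh, Pld6, Dicer1 and Ago2. They were chosen by name, by matching these symbols to the Entrez identifiers of the deposited count table, and all 10 were found among its 21950 genes. The choice was made with earlier results of these data known. The libraries are Smart-seq2 libraries of polyadenylated RNA, each made from 1 growing oocyte (GRO) or 1 fully grown oocyte (FGO). The female mouse line BVSC-iPSC, induced pluripotent stem cells (iPSCs) with the reporters Blimp1-Venus and Stella-ECFP, gave 23 GROs and 24 FGOs. Their primordial germ cell-like cells were made in vitro (the step called IVP), sorted, and cultured with somatic cells of E12.5 gonads into reconstituted ovaries (in vitro oocyte differentiation, IVD), and follicles were then grown in culture (in vitro growth, IVG). Whole cells of E12.5 gonads that entered at the IVD step gave 24 GROs and 24 FGOs, follicles taken 6 days post partum (6 dpp), which entered at the IVG step, gave 24 FGOs, and ovaries in vivo gave 24 GROs and 20 FGOs. All iPSC-derived oocytes come from 1 line, a reconstituted ovary can still hold germ cells of the host gonad, and the labels name no animal, culture or batch for any oocyte.

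The libraries held 2170106 to 13692528 counted reads, with a median of 6925374. All 12 oocyte marker genes were abundant in every group, summing to between 28300 and 74494 CPM (counts per 1000000 counted reads) in single oocytes, whereas 3 blood cell markers summed to at most 1.44 CPM. Markers of granulosa and cumulus cells, of which 11 of the 14 listed were measured, summed to 15.4 to 1596 CPM, with the highest sum in 6 dpp FGO 12, the oocyte that was also highest for theca and stroma markers (832 CPM). Single GROs reached at most 94.4 CPM of the granulosa and cumulus markers and FGOs held at least 51.4 CPM. Cyp19a1 was the highest of these markers in each FGO group, at 61.9 to 77.2 pooled CPM. Only 3 to 8 of the 11 markers reached 1 CPM in a group, so the sums rest on few genes. The part of granulosa and cumulus cells in the growth ratios was not tested. On the first principal component of all oocytes, which held 36.3% of the variance of 14228 genes, no GRO lay above 0, and in vivo FGOs 5, 7, 19 and 22 were the only 4 FGOs below 0. Values without these 4 oocytes follow for each member past the size rule in a comparison with in vivo FGOs, and for some other in vivo values. The remaining in vivo values, and all those of the other listed pathway genes, are given with all in vivo FGOs. They may also depend on these 4 oocytes.

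piRNAs are small RNAs that guide PIWI-family Argonaute proteins to transposon transcripts, and their precursors are cut and loaded in the nuage, a perinuclear granule of germ cells that lies next to mitochondria. In mice the pathway is best known from the male germ line, where its loss derepresses transposons and causes sterility, while most of its genes are also transcribed in oocytes. Mouse oocytes in addition make endogenous small interfering RNAs, which Dicer1 cuts from double-stranded RNA and Ago2 uses to slice targets. RNA of these genes was measured here, and neither small RNAs nor proteins were.

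Levels below are CPM, the share of an oocyte's counted reads that fell in a gene's exons, and a pooled level is the summed reads of a group over its summed total. Differences are log2 ratios of pooled CPM + 0.5, and 2-fold was taken as the size rule. Folds printed beside them are ratios of pooled CPM with nothing added, and so are larger than the log2 ratio alone would give where a level is low. Since nothing in the labels ties oocytes to separate animals or cultures, each group was treated as 1 sample and no test was run. Ranges over oocytes and exact Poisson 95% intervals of pooled levels stand in its place. The intervals cover only the counting of amplified reads. They leave out amplification and differences between oocytes, and so are too narrow for the level itself. A lower CPM gives a lower share of the messenger RNA pool, and a smaller number of transcripts in the oocyte cannot be told apart from a larger pool around it. Gene positions are those of RefSeq on GRCm38.p6, and counts cover exons.

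Oocyte growth separated the members into 5 whose level was lower in FGOs from every source and 5 whose level stayed within 2-fold. Piwil2, Ddx4, Tdrd9, Pld6 and Mov10l1 were each at least 2-fold lower in FGOs than in GROs in vivo, in the iPSC-derived and in the gonad-derived oocytes. Of all genes measured, 13.2% were lower by this rule in vivo, 15.3% in the iPSC-derived and 9.98% in the gonad-derived oocytes. Mael, Tdrd1, Tdrkh, Dicer1 and Ago2 did not pass the rule in any source, and no member was at least 2-fold higher in FGOs, as were 10.4% of genes in vivo, 6.69% in the iPSC-derived and 5.82% in the gonad-derived oocytes. The 3 growth comparisons share no oocyte. Their median log2 ratios over the 10 members were -0.76 in vivo, -0.92 in the iPSC-derived and -0.996 in the gonad-derived oocytes, beside -0.11, -0.11 and -0.05 over all genes measured. Since the members were chosen with earlier results known, these contrasts with all genes are not those of a list chosen blind.

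**Figure D1:**
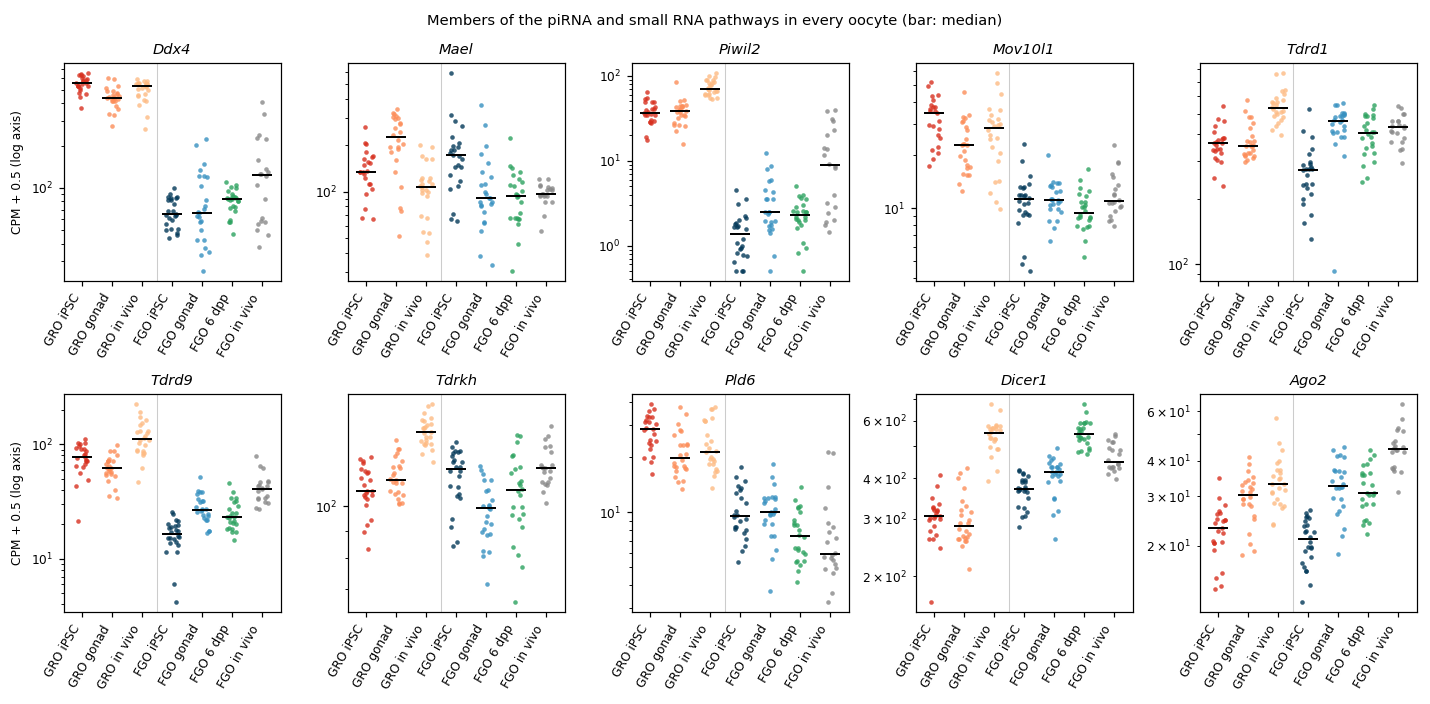
Each panel shows 1 gene, each point 1 oocyte, and each black bar the median of a group; the vertical axes give CPM + 0.5 on log scales that differ between panels. Piwil2 lay between 15.3 and 108 CPM in the 71 GROs and between 0 and 38.9 CPM in the 92 FGOs.

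Piwil2 (MILI, chr14:70372477-70436898, - strand) encodes the PIWI protein that binds piRNAs in prenatal and postnatal germ cells, and it had the lowest ratio of all members in each source. In GROs its lowest, median and highest levels were 16.9, 36.2 and 63.7 CPM for the iPSC-derived, 15.3, 38.0 and 85.1 CPM for the gonad-derived and 53.2, 70.6 and 108 CPM for the in vivo oocytes. The corresponding values in FGOs were 0, 0.885 and 3.98 CPM for the iPSC-derived, 0, 1.96 and 11.9 CPM for the gonad-derived, 0, 1.81 and 4.52 CPM for the 6 dpp and 0.931, 8.42 and 38.9 CPM for the in vivo oocytes. No FGO reached the lowest GRO of its own source, so the ranges were apart in all 3 sources, and the in vivo FGOs alone among the FGO groups reached the levels of cultured GROs. The pooled level was 37.6 CPM (95% interval 36.7 to 38.6) in the iPSC-derived GROs and 1.08 CPM (95% interval 0.925 to 1.25) in the iPSC-derived FGOs, a 34.9-fold difference in pooled CPM, with a log2 ratio of -4.60 after 0.5 CPM was added to both. Only 5 of the 13115 genes measured in that comparison had a lower ratio. In the gonad-derived oocytes it was 12.7-fold lower (log2 ratio -3.47), with 12 genes at a lower ratio, and in vivo 5.65-fold lower (log2 ratio -2.45), with 82. Without in vivo FGOs 5, 7, 19 and 22 the log2 ratio in vivo was -3.14. The iPSC-derived FGOs had the lowest pooled level of the 7 groups, and 3 of 24 oocytes of them had no Piwil2 read, against 1 of 24 gonad-derived and 1 of 24 6 dpp FGOs and 0 of 20 in vivo FGOs. A count of 0 in 1 library does not show that the transcript was absent.

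Ddx4 (MVH, or mouse VASA, chr13:112598333-112652633, - strand) encodes the DEAD-box RNA helicase of the nuage and is the classical germ cell marker. In GROs its lowest, median and highest levels were 371, 556 and 656 CPM for the iPSC-derived, 276, 437 and 601 CPM for the gonad-derived and 262, 527 and 598 CPM for the in vivo oocytes. In FGOs they were 43.2, 64.2 and 99.8 CPM for the iPSC-derived, 25.03, 65.9 and 223 CPM for the gonad-derived, 46.5, 82.5 and 110.2 CPM for the 6 dpp and 37.3, 123 and 409.6 CPM for the in vivo oocytes. Of the 92 FGOs, 90 lay below every GRO, and the ranges were apart in both cultured sources but met in vivo. The pooled level was 8.16-fold lower in iPSC-derived FGOs than GROs (log2 ratio -3.02), 5.24-fold lower in the gonad-derived (-2.38) and 3.53-fold lower in vivo (-1.82). Without in vivo FGOs 5, 7, 19 and 22 the log2 ratio in vivo was -2.34, close to that of the gonad-derived oocytes. Ranges lay apart in the lower direction for 2 members, Ddx4 and Piwil2, in the iPSC-derived and in the gonad-derived oocytes, and for Piwil2 alone in vivo; the shares of all genes were 5.62%, 2.62% and 1.19%.

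Tdrd9 (chr12:111971488-112068854, + strand) encodes a helicase with a Tudor domain, a fold that binds methylated arginines of PIWI proteins. Its lowest, median and highest levels were 21.1, 77.4 and 112 CPM in GROs from iPSCs, 33.4, 61.5 and 98.0 CPM in those from gonads and 46.4, 109.9 and 224 CPM in those grown in vivo. In FGOs they were 3.67, 16.1 and 25.3 CPM in the iPSC-derived, 16.4, 26.4 and 51.5 CPM in the gonad-derived, 14.2, 22.8 and 45.4 CPM in the 6 dpp and 26.7, 40.4 and 78.6 CPM in the in vivo oocytes. The groups overlapped in each source, although 21 of 24 iPSC-derived, 19 of 24 gonad-derived and 16 of 20 in vivo FGOs lay below every GRO of their source. The log2 ratios of FGOs over GROs were -2.23, -1.16 and -1.47 for these sources, the last being -1.66 without in vivo FGOs 5, 7, 19 and 22.

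Mov10l1 (chr15:88982891-89055152, + strand) encodes the RNA helicase that feeds piRNA precursors to processing. Its pooled level was 32.6 CPM in GROs from iPSCs, 23.0 CPM in those from gonads and 27.4 CPM in those grown in vivo, with single oocytes between 9.39 and 57.6 CPM, and all 4 FGO groups pooled to between 9.54 and 11.9 CPM. The log2 ratios of FGOs over GROs were -1.55 in the iPSC-derived, -1.05 in the gonad-derived and -1.17 in the in vivo oocytes, and the ranges overlapped in each. Pld6 (chr11:59783893-59787657, - strand) encodes the mitochondrial counterpart of Drosophila Zucchini, the nuclease that cuts piRNA precursors on the mitochondrial surface. It pooled to 27.5, 21.5 and 23.2 CPM in iPSC-derived, gonad-derived and in vivo GROs and to between 7.26 and 10.0 CPM in the FGO groups, and its log2 ratios were -1.43, -1.06 and -1.55. Without in vivo FGOs 5, 7, 19 and 22, Pld6 pooled to 5.57 CPM in in vivo FGOs, and the ratios in vivo were -1.97 for Pld6 and -1.37 for Mov10l1. Both genes were close to the rule in the gonad-derived oocytes. There they did not pass with a pseudocount of 2 CPM, Pld6 did not pass with medians (-0.98), and Mov10l1 did not pass without GRO 16, the highest of its group (-0.98).

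The stretches upstream of 4 of these genes are shown because Mov10l1, Tdrd9 and Pld6 were lower in FGOs of every source and Dicer1 was not, so that their upstream letters can be set side by side.
Sequences are those of a RefSeq promoter table on GRCm38.p6, in which 8 of the 10 members had an entry, and only bases outside the annotated gene are printed, 5′ to 3′ on the gene's strand.
Capitals mark matches on either strand to the 5 motifs searched in the 250 bases before the start position that this table gives.
That position can lie within the annotated gene: of the 8 windows, 2 lay wholly outside the gene, 5 ran into it, and that of Ddx4 lay wholly inside.
These were the E-box with the letters CACGTG, the GC box with the letters GGGCGG, and further the letters CCAAT, the letters TATAAA and the letters TTTCCCGC.
The stretches lie at chr15:88982744-88982890 (+ strand) for Mov10l1, chr12:111971309-111971487 (+) for Tdrd9, chr11:59787658-59787907 (-) for Pld6 and chr12:104751969-104752202 (-) for Dicer1.
Mov10l1: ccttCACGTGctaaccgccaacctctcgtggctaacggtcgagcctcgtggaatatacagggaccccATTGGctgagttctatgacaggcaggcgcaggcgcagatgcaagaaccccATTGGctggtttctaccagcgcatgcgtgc
Tdrd9: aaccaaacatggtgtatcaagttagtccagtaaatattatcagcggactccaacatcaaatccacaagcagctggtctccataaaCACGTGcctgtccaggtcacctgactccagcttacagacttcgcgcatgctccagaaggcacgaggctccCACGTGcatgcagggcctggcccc
Pld6: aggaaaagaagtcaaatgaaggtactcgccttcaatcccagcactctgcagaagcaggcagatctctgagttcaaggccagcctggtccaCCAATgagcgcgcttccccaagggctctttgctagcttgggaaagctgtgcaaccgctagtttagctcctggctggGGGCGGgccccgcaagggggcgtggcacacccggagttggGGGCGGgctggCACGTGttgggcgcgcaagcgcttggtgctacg
Dicer1: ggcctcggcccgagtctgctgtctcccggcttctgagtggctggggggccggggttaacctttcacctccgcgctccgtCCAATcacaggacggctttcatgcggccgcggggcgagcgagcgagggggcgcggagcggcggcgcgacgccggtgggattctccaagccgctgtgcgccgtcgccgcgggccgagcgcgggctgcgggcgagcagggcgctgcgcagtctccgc
The letters CACGTG, which are their own reverse complement, stood once in the Mov10l1 and Pld6 stretches and 2 times in that of Tdrd9, and they were not in that of Dicer1.
Over the full 250-base windows, 6 of the 8 members held CACGTG, namely Ddx4, Mael, Mov10l1, Tdrd1, Tdrd9 and Pld6, against 6.04% of the 27025 windows of all genes.
The matches of Ddx4 and Tdrd1 lay inside the annotated gene, so that 4 of the 7 members with bases outside it held CACGTG there, namely Mael, Mov10l1, Tdrd9 and Pld6.
Mael and Tdrd1 were not lower by the rule in FGOs, so the letters stood both in members that were lower and in members that were not. The stretches of Mael, Tdrd1 and Tdrkh, members not lower by the rule, are not printed, so the 4 shown are not a fair contrast.
In the full windows GGGCGG was found in 6 of 8 (33.0% of all windows), CCAAT in 7 of 8 (34.5%), and TATAAA (13.0%) and TTTCCCGC (0.929%) in 0 of 8. The windows of the 8 members held 8 to 39 CpG (a C followed by a G), against a median of 6 over all windows. Both CACGTG and GGGCGG hold a CpG, and the shares of all windows were not matched for CpG, so they are an unlike background.
A match describes the letters of the window, and binding there was not measured.

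Tdrd1 (chr19:56826171-56870012, + strand), a Tudor protein of the nuage that binds MILI, had rank 1, 2 or 3 of the members in every group by its level per kilobase of exon. Its pooled level ranged from 273 CPM in iPSC-derived FGOs to 543 CPM in in vivo GROs, and the log2 ratios of FGOs over GROs were -0.41 in the iPSC-derived, 0.20 in the gonad-derived and -0.35 in the in vivo oocytes. Tdrkh (chr3:94413243-94434854, + strand), a Tudor and KH domain protein anchored in the mitochondrial membrane that recruits PIWI proteins for trimming of piRNA ends, had the narrowest spread of the members in 5 of the 7 groups, Dicer1 being narrower in the iPSC-derived and 6 dpp FGOs. Its pooled levels lay between 96.6 and 138 CPM, its log2 ratios of growth between -0.23 and 0.059, and its SD over oocytes between 0.0917 and 0.263 on the log2 scale. Exons of Oaz3 overlap those of Tdrkh on the opposite strand and exons of Chrac1 overlap those of Ago2 in the same way. The paper describes no step that keeps the strand in its single-oocyte libraries, and the use of strand in counting is not stated. Reads of Oaz3 and Chrac1 may therefore be counted in Tdrkh and Ago2, and the levels of both members are uncertain to that extent.

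Mael (chr1:166201385-166238744, - strand), a nuage protein needed for piRNA production and transposon silencing, varied widely between oocytes. Its lowest, median and highest levels were 66.0, 133 and 261 CPM in GROs from iPSCs, 50.7, 224 and 341 CPM in those from gonads and 38.0, 107 and 199 CPM in those grown in vivo. They were 63.7, 171 and 587 CPM in iPSC-derived, 32.6, 89.7 and 362 CPM in gonad-derived, 29.9, 93.6 and 223 CPM in 6 dpp and 55.3, 96.5 and 121 CPM in in vivo FGOs. The in vivo FGOs held the narrowest range, with an SD of 0.257 on the log2 scale, against 0.728, 0.794 and 0.606 in the iPSC-derived, gonad-derived and 6 dpp FGOs. The growth ratios of Mael did not share a direction: the log2 ratio was 0.39 in the iPSC-derived, -0.95 in the gonad-derived and -0.17 in the in vivo oocytes. In the gonad-derived oocytes the ratio of medians was -1.32, and leaving out FGO 18, the highest of that group, gave -1.11, and leaving out FGO 17 gave -1.03.

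Dicer1 (chr12:104687740-104751968, - strand), the RNase III that makes microRNAs and small interfering RNAs, had a higher pooled level in FGOs than in GROs in both cultured sources. Its lowest, median and highest levels were 166, 305 and 407 CPM in GROs from iPSCs, 211, 285 and 429 CPM in those from gonads and 390.2, 550.1 and 672 CPM in those grown in vivo. They were 282, 370.5 and 422 CPM in iPSC-derived, 259, 417 and 492 CPM in gonad-derived, 473, 544 and 674 CPM in 6 dpp and 397, 448 and 547 CPM in in vivo FGOs. The log2 ratio of FGOs over GROs was 0.29 in the iPSC-derived and 0.42 in the gonad-derived oocytes but -0.22 in vivo. Mouse oocytes use a shortened Dicer1 transcript that starts in an intronic retrotransposon, and these counts per gene do not separate it from the full-length form.

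Ago2 (chr15:73101625-73184947, - strand), the Argonaute protein with slicer activity, stayed within 2-fold with growth and had its highest pooled level of each stage in vivo. Its lowest, median and highest levels were 13.5, 22.5 and 34.4 CPM in GROs from iPSCs, 18.0, 29.9 and 40.7 CPM in those from gonads and 23.1, 32.6 and 56.2 CPM in those grown in vivo. They were 12.1, 20.5 and 26.3 CPM in iPSC-derived, 18.1, 32.1 and 44.4 CPM in gonad-derived, 21.5, 30.3 and 43.3 CPM in 6 dpp and 30.5, 43.7 and 63.2 CPM in in vivo FGOs. Every in vivo FGO exceeded every iPSC-derived FGO, while the GRO groups overlapped. The log2 ratios of FGOs over GROs were -0.13 in the iPSC-derived, 0.15 in the gonad-derived and 0.40 in the in vivo oocytes.

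Per kilobase of counted exons, which allows levels to be compared between genes, Ddx4 ranked first of the 10 members in all 3 GRO groups, with 148, 118 and 133 RPKM (CPM per kilobase) in the iPSC-derived, gonad-derived and in vivo GROs. In the cultured FGO groups it had rank 5, at 18.2 to 22.6 RPKM. In in vivo FGOs it had 37.8 RPKM, within the counting interval of Tdrkh (36.9 to 38.0 RPKM), and without in vivo FGOs 5, 7, 19 and 22 it had 26.2 RPKM and rank 5. Mael ranked first in iPSC-derived FGOs, at 89.9 RPKM, and Tdrd1 in the other FGO groups, at 67.2 to 74.0 RPKM. Piwil2 ranked eighth in all 3 GRO groups, at 6.45 to 12.8 RPKM, and last in all 4 FGO groups, at 0.185 to 2.26 RPKM. Ago2 stayed low throughout, at 2.32 to 5.06 RPKM, and Dicer1 was higher in every group, at 31.2 to 56.9 RPKM. When the 7 groups were ordered by the pooled CPM of each member, 46 of the 60 neighbouring pairs had overlapping interquartile ranges and 14 did not, and none had ranges that were apart.

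**Figure D2:**
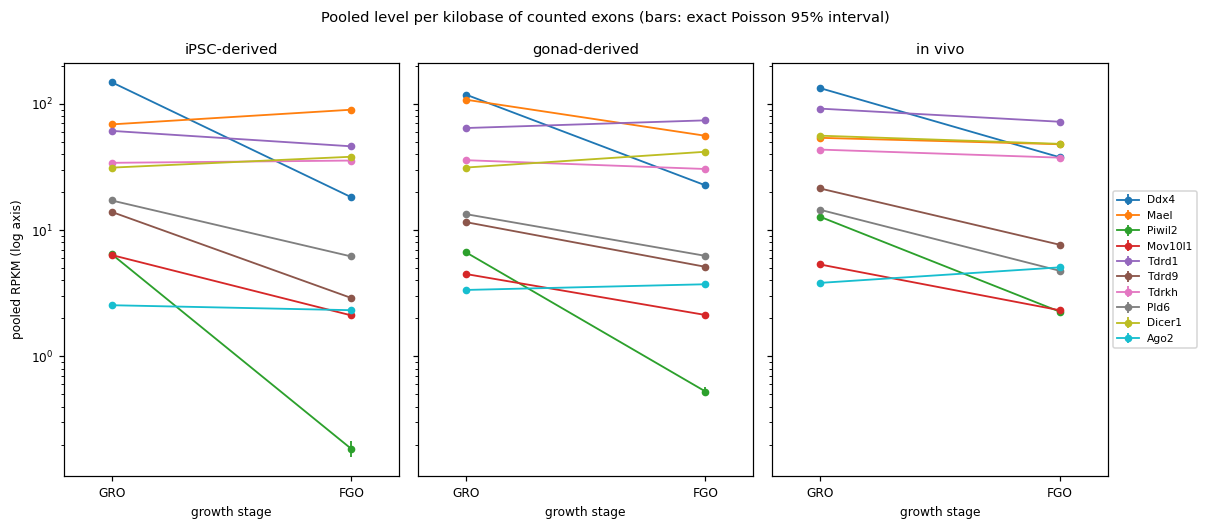
Pooled levels of the 10 members per kilobase of counted exons (RPKM, log axis) in GROs and FGOs of 3 sources; lines join the groups of 1 source and bars give exact Poisson 95% intervals, which are mostly smaller than the points. Ddx4 goes from 148 to 18.2 RPKM and Piwil2 from 6.45 to 0.185 RPKM in the iPSC-derived oocytes.

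Culture of GROs was compared in steps that share groups: iPSC-derived against gonad-derived oocytes (IVP), gonad-derived against in vivo oocytes (IVD), and iPSC-derived against in vivo oocytes (IVP and IVD). No member was 2-fold apart in the IVP step at the GRO stage, where 3.73% of genes were, and the log2 ratios ran from -0.65 for Mael to 0.49 for Mov10l1. In the IVD step Mael passed the rule, with more of it in the gonad-derived GROs, at a log2 ratio of 1.00, beside 4.18% of all genes. It sat at the threshold: leaving out 1 oocyte gave 0.96 to 1.05, and for 24 of the oocytes of both groups the call ended when that oocyte was left out, with the lowest value without in vivo GRO 3. Of the gonad-derived GROs, 14 of 24 lay above every in vivo GRO. Piwil2, Tdrd9 and Dicer1 came next, at -0.93, -0.88 and -0.84, and no member was 2-fold lower, as 2.7% of genes were. Of the gonad-derived GROs, 23 of 24 had less Piwil2 and 21 of 24 less Dicer1 than every in vivo GRO. The exception for Piwil2 was gonad-derived GRO 18, at 85.1 CPM, without which the ratio was -1.01. The study reported that iPSC-derived and gonad-derived GROs were larger than in vivo GROs. Scores on the first principal component ran from -73.2 to -24.0 in iPSC-derived, -64.5 to -8.88 in gonad-derived and -84.4 to -43.6 in in vivo GROs. Diameters were not used here, and the part of the growth stage in the differences between GRO groups was not tested.

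Over both steps, no member was 2-fold apart between iPSC-derived and in vivo GROs, where 9.82% of genes were. The lowest ratios were again those of Piwil2 (-0.98), Dicer1 (-0.84), Tdrd9 (-0.61), Tdrd1 (-0.58) and Ago2 (-0.58). Of the 23 iPSC-derived GROs, 22 had less Dicer1, 21 less Piwil2 and 20 less Tdrkh than every in vivo GRO, although the log2 ratio of Tdrkh was only -0.35. Without iPSC-derived GRO 8, the highest of its group at 63.7 CPM, the ratio of Piwil2 was -1.02, and without GRO 3 it was -1.0008.

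At the FGO stage Piwil2 was the member furthest from in vivo oocytes in both comparisons with them. The IVG step, 6 dpp follicle-derived against in vivo FGOs, gave 1 member at least 2-fold lower, Piwil2, beside 2.97% of genes, and none at least 2-fold higher, beside 1.22%. Piwil2 was 7.04-fold lower (log2 ratio -2.53), a ratio below which only 5 of 13582 genes lay, and leaving out 1 oocyte gave -2.60 to -2.35. Without in vivo FGOs 5, 7, 19 and 22 the ratio was -1.84, and the ratio of Ddx4, -0.81 with all oocytes, was -0.29. Tdrd9, at -0.77, and Ago2, at -0.50, were also lower in the 6 dpp FGOs within 2-fold, and Dicer1 was higher, at 0.24.

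The IVD step at the FGO stage, gonad-derived against 6 dpp FGOs, separated no member by 2-fold, beside 2.53% of genes. Dicer1 was nonetheless lower in 23 of 24 gonad-derived FGOs than in every 6 dpp FGO, at a log2 ratio of -0.45. Gonad-derived FGO 19 stood apart from its group: it was lowest for Mael (32.6 CPM), Tdrd1 (92.5 CPM), Tdrkh (70.9 CPM), Dicer1 (259 CPM) and Ago2 (18.1 CPM) and highest for Ddx4 (223 CPM) and Pld6 (17.8 CPM). Among oocyte markers, the lowest levels of Zp3, Zp2 and Figla in gonad-derived FGOs were 270, 399 and 3.45 CPM, beside lower quartiles of 3716, 2381 and 42.2 CPM. These lowest levels correspond to whole read counts at the depth of FGO 19. That oocyte may therefore differ in more than the members, which was not tested. Without FGO 19 the log2 ratio of Ddx4 in this step was -0.039 instead of 0.071, and the ratio of medians with all oocytes was -0.32. The IVP step, iPSC-derived against gonad-derived FGOs, gave 1 member at least 2-fold lower, beside 3.74% of genes, and none at least 2-fold higher, beside 2.19%. This was again Piwil2, at -1.18, but the ratio of medians was -0.83 and it did not pass the rule with a pseudocount of 2 CPM, the level being low in both groups. Tdrd9 (-0.80), Tdrd1 (-0.68) and Ago2 (-0.67) were lower and Mael (0.68) higher in the iPSC-derived FGOs, all within 2-fold.

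Over IVP, IVD and IVG together, 4 members were at least 2-fold lower in iPSC-derived than in in vivo FGOs, beside 9.84% of genes, and none was at least 2-fold higher, beside 4.03%. The 4 were Piwil2 at a log2 ratio of -3.12, Tdrd9 at -1.37, Ago2 at -1.11 and Ddx4 at -1.05. Piwil2 was 12.2-fold lower, and 14 of 13582 genes had a lower ratio. For Tdrd9 and Ago2 all 24 iPSC-derived FGOs lay below all 20 in vivo FGOs, beside 1.95% of genes with ranges apart in that direction. For Piwil2 and Ddx4 the ranges overlapped, with 12 of 20 in vivo FGOs above every iPSC-derived FGO for either gene. The call for Ddx4 rested on few oocytes: it ended when 1 of in vivo FGOs 5, 7, 19 and 22 was left out (-0.999 to -0.906), and the ratio was -0.53 without all 4 and -0.93 with medians. The other 3 passed the rule without these 4 oocytes, at -2.43 for Piwil2, -1.19 for Tdrd9 and -1.02 for Ago2. The level of Ago2 may include reads of Chrac1, as stated above. Mael was the member furthest in the other direction, at 0.91, with 18 of 24 iPSC-derived FGOs above every in vivo FGO.

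**Figure D3:**
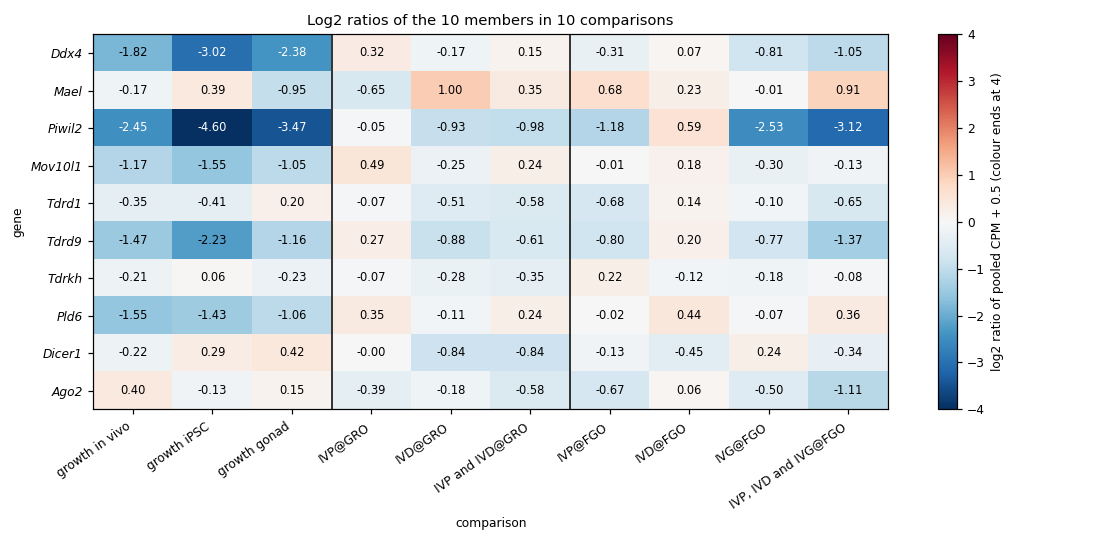
Log2 ratios of pooled CPM + 0.5 for the 10 members (rows) in 3 comparisons of FGOs over GROs and 7 of culture steps (columns); blue is lower in the FGO or in the more cultured group. Piwil2 has the lowest value in all 3 growth columns, from -4.60 to -2.45, and in the IVG column, at -2.53.

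The in vivo FGOs were not uniform for Piwil2 and Ddx4. Of these 20 oocytes, 8 had 0.931 to 3.49 CPM of Piwil2, within the range of the 6 dpp FGOs (0 to 4.52 CPM), and the other 12 had 7.77 to 38.9 CPM, above all of them. The 8 lower oocytes were also the 8 with the highest scores on the first principal component, from 47.9 to 55.7, while the 12 others scored between -35.8 and 46.5. Ddx4 followed a similar order: 11 of the 20 in vivo FGOs, with 122 to 410 CPM, lay above every 6 dpp FGO, and the component score of these 11 was at most 40.5. FGO 7, at a score of -35.8, held 410 CPM of Ddx4 and 38.9 CPM of Piwil2, levels found in cultured GROs, whereas FGO 12, at 54.3, held 37.3 and 1.90 CPM. Over the 20 in vivo FGOs, Pearson's r of the log2 level with the score was -0.93 for Ddx4, -0.89 for Piwil2 and -0.73 for Ago2, and it was -0.88, -0.89 and -0.73 over the 16 oocytes other than FGOs 5, 7, 19 and 22. These values without the 4 oocytes were added after the data were seen. For 3 members it was weaker without these 4 oocytes: it went from -0.81 to -0.51 for Pld6, from -0.72 to -0.10 for Tdrd9 and from -0.71 to 0.052 for Mov10l1. The other members had 0.45 (Dicer1), -0.43 (Tdrkh), -0.34 (Mael) and -0.15 (Tdrd1) with all 20, and 0.16, 0.30, -0.38 and 0.084 without the 4. For Ddx4 and Piwil2 the order was also found in some of the other groups. In the other groups, r of Ddx4 with the score was -0.75, -0.83 and 0.068 in iPSC-derived, gonad-derived and in vivo GROs. It was -0.66, -0.58 and 0.22 in iPSC-derived, gonad-derived and 6 dpp FGOs. For Piwil2 these values were -0.63, -0.71 and -0.19 in the GRO groups and -0.20, -0.70 and -0.086 in the FGO groups. Ago2 differed, with 0.65, 0.40 and -0.032 in the GRO groups and -0.23, -0.10 and -0.15 in the same FGO groups. The component was built from the same libraries, with these genes among many, so the values describe shared order within the libraries and carry no p-value. Oocyte diameters were not used here, and the part of the growth stage in these differences was not tested.

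**Figure D4:**
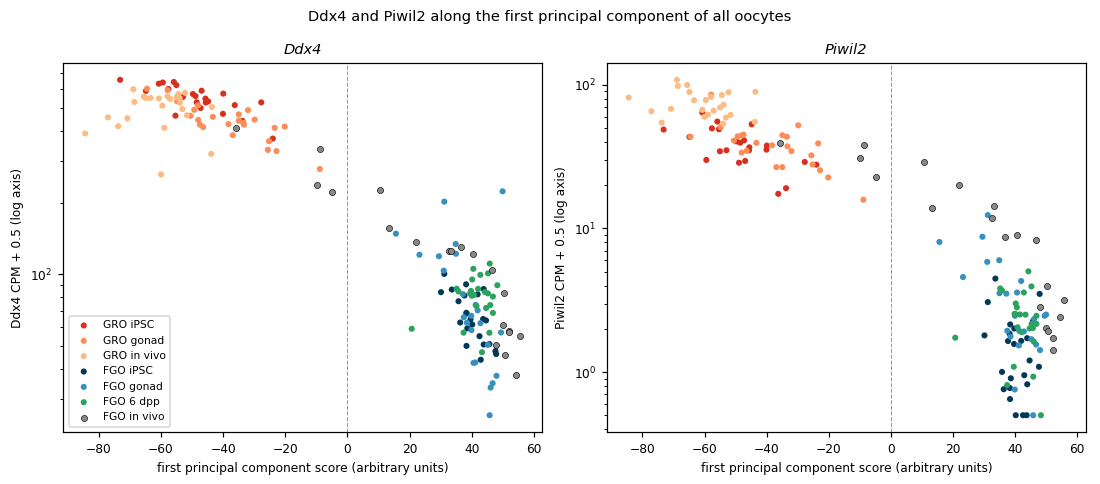
Each point is 1 oocyte, placed by its score on the first principal component of all genes (horizontal axis) and its CPM + 0.5 of Ddx4 or Piwil2 (vertical log axis); in vivo FGOs are grey with black outlines. The in vivo FGOs spread from a score of -35.8 to 55.7, and their Piwil2 level runs from 38.9 CPM down to 0.931 CPM.

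Within the 7 groups, some members varied together from oocyte to oocyte. The pair of members with the highest median correlation over groups was Tdrd1 and Tdrd9, with a median Pearson's r of 0.62 (0.15 to 0.81), followed by Ddx4 and Piwil2, with 0.54 (0.13 to 0.96). Both pairs had a positive r in all 7 groups of 20 to 24 oocytes, as did further pairs such as Mov10l1 and Tdrd1. Pairs of genes outside the members were not set beside them. The lowest r of Tdrd1 with Tdrd9 was that of the gonad-derived FGOs, where Spearman's rho was 0.56. The highest r of Ddx4 with Piwil2 was that of the in vivo FGOs, where it was 0.94 without FGOs 5, 7, 19 and 22. At the other end Ddx4 and Ago2 had a median r of -0.37 (-0.62 to 0.83), the highest again in the in vivo FGOs, where it was 0.83 without these 4. Oocytes of a group share preparation, and CPM values of a library share its total.

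Over all oocytes, the gene whose log2(CPM + 1) was most like that of Ddx4 was Ythdf2, a reader of methylated RNA, at r = 0.97, followed by Ran at 0.96, of 10996 genes searched. Piwil2 was most like Fermt2 (0.95) and Traip (0.95), and Tdrd9 most like Aplp2 (0.92) and Mtmr14 (0.90). Pld6 was closest to Scrn2 (0.87), Tdrd1 to Abr (0.84), Mov10l1 to Sin3b (0.84), Ago2 to Tacc1 (0.75) and Dicer1 to Arid2 (0.74). Tdrkh, with Mrpl58 at 0.66, and Mael, with Alyref2 at 0.56, had no close neighbour. Oocytes of both stages enter these values, and genes of 1 library share its depth.

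Other genes of the piRNA pathway, 20 of the 22 listed being measured, differed from GROs to FGOs in both directions. Piwil1 (MIWI), the PIWI protein of meiotic and later spermatogenic cells, was higher in FGOs, opposite to Piwil2. It pooled to 6.87, 12.4 and 3.47 CPM in iPSC-derived, gonad-derived and in vivo GROs and to 49.5, 39.5 and 22.8 CPM in the FGOs of these sources, with log2 ratios of 2.76, 1.64 and 2.56. In the 6 dpp FGOs it pooled to 39.8 CPM. Cultured oocytes had more of it than in vivo oocytes, with log2 ratios of 1.70 for gonad-derived against in vivo GROs and 1.10 for iPSC-derived against in vivo FGOs. Gpat2, a mitochondrial protein that binds MILI, resembled Piwil2. It was lower in FGOs with ranges apart in all 3 sources, at log2 ratios of -4.05 in the iPSC-derived, -2.91 in the gonad-derived and -2.51 in the in vivo oocytes, and lower in iPSC-derived FGOs than in gonad-derived (-1.10) and in vivo FGOs (-2.09).

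By the 2-fold rule, 3 other piRNA pathway genes were lower and 1 higher in FGOs in vivo, 5 lower and 1 higher in the iPSC-derived and 2 lower and 1 higher in the gonad-derived oocytes. These counts are of 20, 19 and 19 genes that passed the filter on low levels, and of all genes 13.2%, 15.3% and 9.98% were lower and 10.4%, 6.69% and 5.82% higher, so that they are not a result about the pathway. Besides Gpat2, the lower genes were Fkbp6 (-1.04) and Tdrd6 (-1.21) in vivo, Pnldc1 (-1.57), Tdrd7 (-1.27), Fkbp6 (-1.15) and Piwil4 (-1.01) in the iPSC-derived, and Pnldc1 (-1.16) in the gonad-derived oocytes. Pnldc1 is the exonuclease that trims piRNA ends, and Piwil4 (MIWI2), the nuclear PIWI protein, pooled to under 1 CPM in every group and is named because its ratio was seen, which depends on the pseudocount. For gonad-derived against in vivo GROs 1 of the 20 was higher and 1 lower, beside 4.18% and 2.7% of all genes. In iPSC-derived against in vivo GROs 2 were lower, where 9.82% of all genes were 2-fold apart. In iPSC-derived FGOs 1 was lower than in the gonad-derived, beside 3.74%. Against in vivo FGOs 2 were lower and 1 higher, beside 9.84% and 4.03%. These counts are likewise not a result about the pathway. Against in vivo GROs, Tdrd6 was lower in gonad-derived (-1.25) and iPSC-derived GROs (-1.41), at pooled levels of 5.05 CPM or less. Tex15, which takes part in piRNA-directed DNA methylation, was lower in iPSC-derived than in in vivo GROs (-1.30) and FGOs (-1.98). The remaining 12 of the 20 genes did not pass the rule in any comparison.

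Of the other genes of microRNA and small interfering RNA silencing, 17 of 19 listed were measured. For growth, 17 passed the filter in vivo, 16 in the iPSC-derived and 16 in the gonad-derived oocytes. None was 2-fold apart between FGOs and GROs in vivo or in the iPSC-derived oocytes. Of all genes, 13.2% were lower and 10.4% higher in vivo, and 15.3% lower and 6.69% higher in the iPSC-derived oocytes. In the gonad-derived oocytes 1 gene, Ago4, was lower, at -1.47, beside 9.98% of all genes. Ago4 was also lower in 6 dpp (-1.79) and iPSC-derived (-1.52) than in in vivo FGOs, at pooled levels of 0.690, 0.939 and 3.62 CPM. Of all genes, 2.97% and 9.84% were lower in these 2 comparisons. Ago1 was higher (1.47) and Tnrc6c lower (-1.24) in iPSC-derived than in in vivo GROs, the ratio of medians of Tnrc6c being -0.64. Ago1 pooled to only 2.98 CPM in these iPSC-derived and 0.754 CPM in these in vivo GROs, so its ratio depends on the pseudocount. Of all genes, 9.82% were 2-fold apart there. Tnrc6c in in vivo GROs ranged from 23.2 to 114 CPM, against 13.1 to 26.1 CPM in the iPSC-derived GROs.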

How the data were processed

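Single oocytes were sequenced as Smart-seq2 libraries with single-end reads. The authors aligned reads with STAR to GRCm38 with ERCC spike-in sequences and deposited raw counts of uniquely mapped reads per gene, made with QuasR over the exons of 1 transcript per gene; the QuasR version is not given in the sources used here, nor is the use of strand. Amplified reads carry no molecular identifiers. From the deposited counts, CPM, pooled CPM, RPKM (by the deposited exonic length) and log2 ratios of pooled CPM + 0.5 were computed with Python 3.11.15, NumPy 2.4.6, pandas 2.3.3 and SciPy 1.17.1. Genes above 1 CPM in at least 3 oocytes, 13068 to 13582 genes, formed the background of a comparison. For growth the oocytes of both groups were counted, and for culture steps those of all groups of the stage. No test was run. Groups were taken from the labels, and the study's selection by oocyte size was not applied. Alternatives used TMM factors and coefficients of edgeR 4.0.16, size factors of DESeq2 1.42.0 (R 4.3.3), means, medians, a pseudocount of 2 CPM, no filter, folds of 1.5 and 4, each oocyte left out in turn, and the shallow gonad-derived FGOs 5 and 22, in vivo FGO 7 or in vivo FGOs 5, 7, 19 and 22 left out. Correlations and RPKM of in vivo FGOs without these 4 oocytes were added after the data were seen. The ratio script was checked on simulated counts. Named were all members, other listed pathway genes past 2-fold whose higher group reached 1 pooled CPM, listed genes below 0.5 pooled CPM throughout, and up to 2 genes most correlated with each member. Members and lists were chosen with earlier results of these data known. The listed genes Tdrd15, Spocd1, Xpo5, Prkra, Foxl2, Inha and Ptgs2 were not analysed here.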

Additional observations from a re-analysis of the deposited data

How the results depend on the processing

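No member's ratio that was past 2-fold changed direction under any alternative run. No paired analysis was possible because the ratios come from no test and the replicate numbers of the labels name no shared animal, culture or day. With a threshold of 4-fold, the number of members past it was 1 in vivo, 3 in the iPSC-derived and 2 in the gonad-derived oocytes for growth, 0 for IVD at the GRO stage, 0 for IVP at the FGO stage and 1 for iPSC-derived against in vivo FGOs, beside 5.02%, 4.74%, 2.75%, 0.685%, 0.685% and 1.98% of all genes. With 1.5-fold it was 1 for IVP, 4 for IVD and 3 for both steps at the GRO stage, and 5 for IVP, 1 for IVD and 3 for IVG at the FGO stage, beside 12.7%, 22.4% and 27.7% of all genes at the GRO stage and 2600 (IVP), 1169 (IVD) and 2169 (IVG) of 13582 genes at the FGO stage. A pseudocount of 2 CPM left 3 members for growth of the gonad-derived oocytes, 0 for IVD at the GRO stage and 0 for IVP at the FGO stage, where medians also gave 0. Leaving out 1 oocyte at a time gave 4 to 6 members for growth of the gonad-derived oocytes, 0 to 1 for IVD and 0 to 1 for both steps at the GRO stage, and 3 to 4 for iPSC-derived against in vivo FGOs. The members concerned were Mael and Mov10l1 for growth, Mael and Piwil2 for IVD, Piwil2 for both steps and Ddx4 for iPSC-derived against in vivo FGOs. Depth limits Piwil2 most, since FGOs at 0 can only be placed below the level of a few reads.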
